A study of Homo sapiens with 4 samples.

Results

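The polyamine genes described here are 9 genes that make, restrain or break down putrescine, spermidine and spermine: ODC1, AMD1, SRM and SMS, the antizyme genes OAZ1 and OAZ2, the antizyme inhibitor gene AZIN1, and the breakdown genes SAT1 and PAOX. They were chosen by symbol, and all 9 were among the 25693 human genes of the count table, 1 Ensembl identifier each. The cells were NGP, an established human neuroblastoma line that carries an amplified MYCN gene. Both groups had been synchronised by serum removal, and one then received Nutlin-3, which releases p53 from its inhibitor MDM2, and the other the solvent ethanol, each for 24 h. Single-cell libraries were made on the ddSeq droplet device with a kit that reads the 3' ends of polyadenylated RNA, 2 libraries per treatment, whose ERCC spike-in RNAs were diluted 1000-fold in one and 10000-fold in the other. The labels give no replicate cultures, and no agent other than Nutlin-3 that separated the groups.

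Polyamines are small positively charged molecules that growing cells need for translation and chromatin function. Ornithine decarboxylase, the product of ODC1, makes putrescine. Spermidine synthase and spermine synthase, from SRM and SMS, then add aminopropyl groups, which come from S-adenosylmethionine once the AMD1 enzyme has decarboxylated it. Antizymes bind ornithine decarboxylase and send it to the proteasome, and the antizyme inhibitor binds antizymes in its place. The SAT1 enzyme acetylates spermidine and spermine, and the PAOX oxidase breaks down the acetylated forms. ODC1 is a textbook target of MYC proteins and is studied as a drug target in MYCN-amplified neuroblastoma, while SAT1 is known as a gene that p53 can raise. The comparison therefore asked whether ODC1 and SRM on one side and SAT1 on the other differed between Nutlin-3 and ethanol.

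Sequences near the starts of the genes were searched for the E-box, the motif that MYC proteins bind, and for the CCAAT and p53 motifs. RefSeq promoter windows on GRCh38.p14, each 300 bases from 250 before a transcript start, were found for 7 of the 9 genes, 10 windows in all, and none was found for AZIN1 or PAOX. The E-box CACGTG, which reads the same on both strands, was in 1 of the 2 ODC1 windows, where it occurred 2 times, and in the SRM window, where it occurred 1 time. It was in none of the AMD1, SMS, OAZ1, OAZ2 and SAT1 windows, and in 7.26% of all 35116 windows. The 2 ODC1 copies lie at chr2:10448036-10448041 and chr2:10448002-10448007, inside an intron of 2 of the 4 annotated ODC1 transcripts and outside the other 2. The SRM copy lies at chr1:11060212-11060217, upstream of all 6 annotated SRM transcripts. The motif CCAAT, on either strand, was in the SRM, SMS, OAZ1 and SAT1 windows and in 1 of the 3 AMD1 windows, against 34.6% of all windows. The p53 half-site, searched on both strands, was in 0 of the 10 windows and in 6.63% of all windows. In the stretches below, capitals mark CACGTG in ODC1, CACGTG and CCAAT in SRM, and CCAAT in SAT1. They are shown because these are the genes the comparison turns on, and a match of letters is not evidence of binding. The ODC1 stretch is chr2:10447993-10448082 on the minus strand, the SRM stretch chr1:11060069-11060268 on the minus strand and the SAT1 stretch chrX:23783073-23783172 on the plus strand, all 5′ to 3′.
ODC1: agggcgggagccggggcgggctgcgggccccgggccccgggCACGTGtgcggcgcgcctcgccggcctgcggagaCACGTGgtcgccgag
SRM: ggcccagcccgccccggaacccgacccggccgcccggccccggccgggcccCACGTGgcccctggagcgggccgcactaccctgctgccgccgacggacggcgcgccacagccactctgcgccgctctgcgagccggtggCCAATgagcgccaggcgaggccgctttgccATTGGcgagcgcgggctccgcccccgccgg
SAT1: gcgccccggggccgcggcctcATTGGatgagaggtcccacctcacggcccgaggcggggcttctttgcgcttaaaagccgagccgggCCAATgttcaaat

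The table holds 500 columns named by 12 bases and a word for treated or untreated, 250 of each, and no name gives the library, so each treatment was 1 pool and no value has a replicate. Names recurred between the treatments in 219 cases, and 419 of the 500 hold the letters TAG past their opening bases. Whether a column is 1 cell was not tested. The ethanol pool held 1342134 human counts and the Nutlin-3 pool 1301232. In each pool 113 columns had over 4000 counts, called large here, and 137 had fewer, called small. Large columns held 5288 to 13502 counts and small ones 253 to 3598. All 8 adrenergic neuroblastoma markers examined were present, from DBH, whose sums were 104 (ethanol) and 131 (Nutlin-3), to CHGA with 411 and 559, the one of the 8 whose log2 fold change, 0.49, had a 95% counting interval without 0 (0.30 to 0.68). Of 7 fibroblast and Schwann cell markers 5 were in the table, with 103 and 105 counts in all, and of 4 blood markers 1 was, with 7 and 7. Of the fibroblast markers, COL1A1 (29 against 47 counts) and LUM (34 against 13) had counting intervals that left out 0, in opposite directions. The part of these 3 markers in the results was not tested. Without replicates no test was run, and a pool with fewer expressing cells cannot be told apart from one with less RNA per cell.

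In summed counts, relative to all human counts, no polyamine gene had a 95% counting interval that separated Nutlin-3 from ethanol. These sums have little room to differ for 7 of the genes, which had 1 count or more in nearly all large columns of both treatments, and a sum with no call does not show that a gene stayed the same. In counts beyond the first per column AZIN1 was called lower, as described with the counts per column. It passed the filter on low counts there only through the ethanol pool, where it was higher. A gene was called higher or lower when the 95% counting interval of its log2 fold change (the Nutlin-3 level divided by the ethanol level) left out 0. PAOX did not pass the filter on low counts, and of the 8 genes that did, 0 were called, where 8.14% of all 14830 genes past the filter were called in either direction. Among the 8844 genes with at least 50 CPM (counts per 1000000 human counts of the pool), a range that holds 7 of the 9 genes, 4.32% were called. With 8 genes, a count of 0 lies near that background. In large columns 0 of 8 members and 6.92% of 14759 genes were called, and in small columns 0 of 7 members and 6.34% of 4762 genes. The median log2 fold change of the 8 was -0.028 (range -0.19 to 0.38), and that of all genes past the filter was -0.0017. The other call rule used, a fold of at least 1.5, was met by 0 of the 8 in either direction, against 7.81% of all genes for higher and 5.85% for lower values. Scaled to ERCC counts instead, the median log2 fold change of all genes was -0.47, and 7 of the 8 members were called lower, where 53.8% of all genes were called lower and 1.13% higher. The ERCC totals, 2989 in ethanol and 4007 in Nutlin-3, mix libraries of 1000-fold and 10000-fold dilution in unknown parts. This scaling is therefore not read as a change in RNA. Directions below are relative to all human counts. The plot of all genes past the filter shows the members close to the line of no change.

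**Figure D1:**
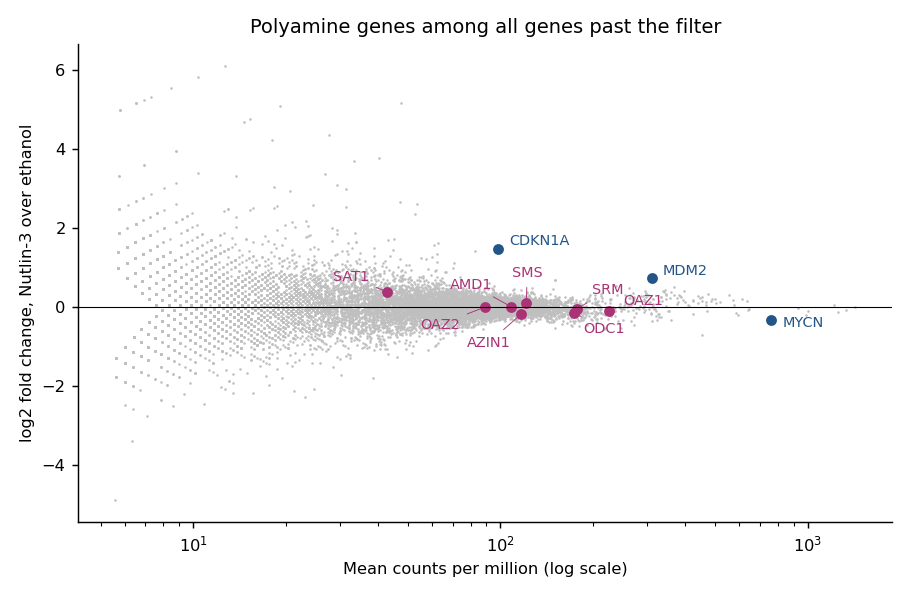
Each grey point is 1 of 14830 genes, with its mean level in CPM on a log axis and its log2 ratio between Nutlin-3 and ethanol. The 8 polyamine genes past the filter (purple) lie between -0.19 and 0.38, whereas CDKN1A lies at 1.46, MDM2 at 0.72 and MYCN at -0.33 (blue).

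Among the synthesis genes, ODC1 (ENSG00000115758, chromosome 2, 10439968 to 10448504 on the minus strand in GRCh38) had 247 counts with ethanol (95% Poisson interval 217 to 280) and 214 with Nutlin-3 (186 to 245), or 184 and 165 CPM. The 2 intervals overlap, with the lower value in Nutlin-3. The log2 fold change came to -0.16 (95% counting interval -0.43 to 0.11). In the large columns 113 of its 177 ethanol and 113 of its 158 Nutlin-3 counts were the first count of a column, present in each one, so this interval sets no limit on the size of a change in ODC1. Counts beyond the first gave a wider one, from -0.87 to 0.29. SRM (ENSG00000116649, chromosome 1, 11054584 to 11060024, minus strand) had 243 counts with ethanol (213 to 276) and 227 with Nutlin-3 (198 to 259). These are 181 and 175 CPM, with a log2 ratio of -0.053 (-0.32 to 0.21). On the CPM scale the intervals of ODC1 and SRM overlapped in both pools. Per kilobase of exon SRM was higher with intervals apart (95.4 against 62.0 in ethanol, 91.9 against 55.4 in Nutlin-3). Both genes had exactly 1 count in most large columns, so this order is not read as one of level.

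The other synthesis genes lay closer to equality or a little above it. AMD1 (ENSG00000123505, chromosome 6, 110874770 to 110895713, plus strand) had 145 counts with ethanol and 141 with Nutlin-3, that is 108 CPM in both, for a log2 ratio of 0.0053 (-0.34 to 0.35). It had exactly 1 count in 97 ethanol and 104 Nutlin-3 large columns of 113, which left its sums little room to differ. SMS (ENSG00000102172, chromosome X, 21940573 to 21994835, plus strand) had 157 and 164 counts, or 117 and 126 CPM, for a log2 ratio of 0.11 (-0.22 to 0.43). For both enzymes the Poisson intervals of the treatments overlapped. Together the 4 synthesis genes gave 792 counts in ethanol and 746 in Nutlin-3, or 590 and 573 CPM.

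The antizyme genes are read through a programmed frameshift: the ribosome slips forward at a stop codon, more often when polyamines are plentiful, and only then makes full-length antizyme. The site is shown because it is the feature OAZ1 and OAZ2 share and because counts of RNA do not report its use. The 30 bases around it, from GENCODE transcripts, are the same at 29 positions in the 2 genes, and capitals mark the codon TCC and the stop codon TGA. The bases TCCTGATG, by which the site was searched, were found in 7 of 11 annotated OAZ1 and 5 of 9 annotated OAZ2 transcripts.
OAZ1: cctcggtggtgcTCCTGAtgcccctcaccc
OAZ2: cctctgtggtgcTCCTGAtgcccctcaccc

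OAZ1 had the most counts of the 9 genes (ENSG00000104904, chromosome 19, 2269509 to 2273490, plus strand), with 313 in ethanol (279 to 350) and 283 in Nutlin-3 (251 to 318), or 233 and 218 CPM. The log2 fold change came to -0.10 (-0.34 to 0.14). OAZ2 (ENSG00000180304, chromosome 15, 64687573 to 64703281, minus strand) had 120 and 116 counts, or 89.4 and 89.2 CPM, for a log2 ratio of -0.0032 (-0.38 to 0.38). AZIN1, whose product protects ornithine decarboxylase from antizyme (ENSG00000155096, chromosome 8, 102826357 to 102893864, minus strand), had 167 counts with ethanol (143 to 194) and 142 with Nutlin-3 (120 to 167). That is 124 and 109 CPM, for a log2 ratio of -0.19 (-0.52 to 0.14), the lowest of the 8. In none of these 3 genes were the Poisson intervals of the treatments apart.

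SAT1 (ENSG00000130066, chromosome X, 23783173 to 23786226, plus strand) had 50 counts with ethanol (37.1 to 65.9) and 63 with Nutlin-3 (48.4 to 80.6), or 37.2 and 48.4 CPM. It was the gene of the 8 with the highest log2 fold change, 0.38 (-0.18 to 0.94), but its interval took in 0 and the 2 Poisson intervals overlapped. In fold terms the value was 1.30, and the interval ran from 0.883 to 1.92. At 50 and 63 counts a rise of this size was not detectable. PAOX (ENSG00000148832, chromosome 10, 133379234 to 133391694, plus strand) had 0 counts with ethanol and 2 with Nutlin-3. Both lie under 3 counts, which a count of 0 still allows and which equals 2.23 CPM in ethanol, so no fold is given. The acetylating enzyme was thus the one measurable breakdown gene among the 9.

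**Figure D2:**
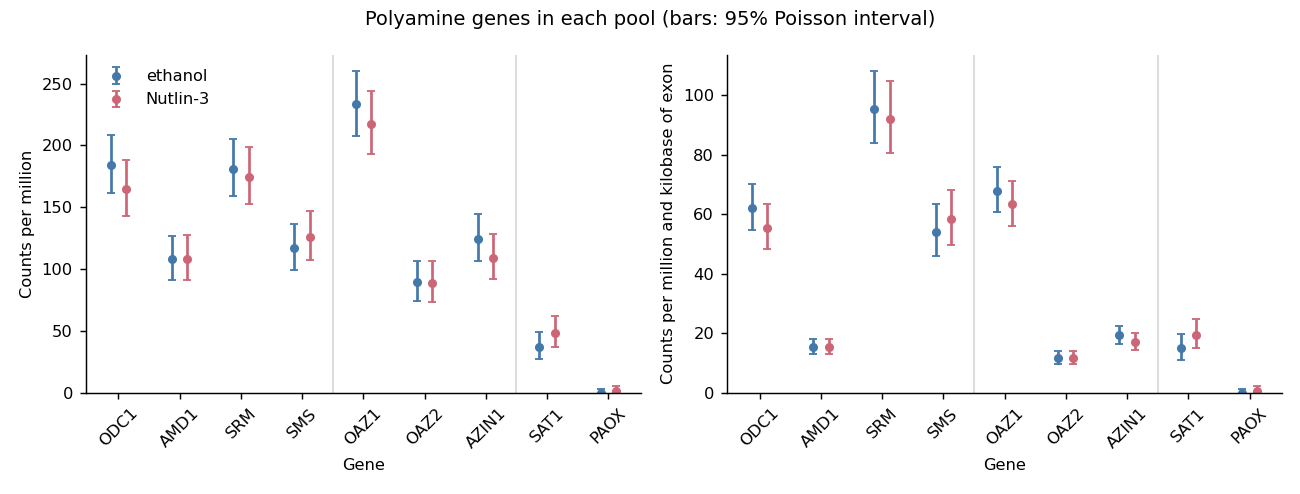
Levels of the 9 genes in the ethanol (blue) and Nutlin-3 (red) pools, in CPM on the left and in CPM per kilobase of annotated exon on the right, with 95% Poisson intervals that cover counting error only. The intervals of the 2 treatments overlap for each gene, and grey lines separate synthesis, antizyme and breakdown genes.

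Levels between genes depend on the scale, since the kit reads 3' ends and longer genes need not give more counts. In CPM the order in ethanol was OAZ1, ODC1, SRM, AZIN1, SMS, AMD1, OAZ2, SAT1 and PAOX. Neighbours in that order overlapped in their Poisson intervals except SRM and AZIN1, OAZ2 and SAT1, and SAT1 and PAOX. Per kilobase of annotated exon SRM came first in both pools, at 95.4 CPM per kilobase in ethanol and 91.9 in Nutlin-3. The next were OAZ1, ODC1 and SMS in ethanol, at 67.9, 62.0 and 54.1, and these 3 overlapped. SAT1 then reached 14.9 in ethanol and 19.4 in Nutlin-3, on a level with AZIN1 (19.4 and 17.0) and AMD1 (15.4 and 15.4). The low place of SAT1 against AMD1 and AZIN1 in CPM was therefore not seen per kilobase, while its place below ODC1, SRM, SMS and OAZ1 was seen on both scales. Levels also depended on the columns. In large and small ethanol columns ODC1 had 149 and 458 CPM, SRM 143 and 477, and AMD1 107 and 118. The other way went OAZ2, with 93.2 and 58.8, and SAT1, with 41.1 and 6.54. AMD1, SMS, AZIN1, OAZ2, ODC1 and SRM had exactly 1 count in most large columns of both treatments. OAZ1 did so with Nutlin-3, in 60 of 113. The order of these genes on either scale is therefore not read as one of level.

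SAT1 was then set against ODC1 and SRM within each pool, a comparison in which library size cancels. The log2 fold change of SAT1 exceeded that of ODC1 by 0.54 (exact conditional interval -0.086 to 1.17), and that of SRM by 0.43 (-0.19 to 1.06). SRM exceeded ODC1 by 0.11 (-0.27 to 0.49). Each interval took in 0. ODC1 and SRM had 1 count or more in all 113 large columns of both treatments, which held their sums, whereas SAT1 had a count in 48 and 58. The genes were thus measured unlike, and whether the 3 differ cannot be decided from these sums. As ratios, SAT1 over ODC1 changed by a factor of 1.45 (0.942 to 2.25) from ethanol to Nutlin-3. The ratio of breakdown counts (SAT1 and PAOX) to synthesis counts (ODC1, AMD1, SRM and SMS) was 0.0631 in ethanol (0.0465 to 0.0841) and 0.0871 in Nutlin-3 (0.0666 to 0.112), a log2 difference of 0.46 (-0.11 to 1.05). These pooled ratios mix unlike columns. In large columns the ratio was 0.0814 in ethanol and 0.105 in Nutlin-3. In small columns it was 0.00526 and 0.0241, on 1 and 4 breakdown counts. Most synthesis counts of large columns were first counts present in nearly every column, so the ratios do not measure a balance in the cells.

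MYCN and the p53 target CDKN1A, which encodes the cell cycle inhibitor p21, were used as points of reference. MYCN had 1140 counts with ethanol and 877 with Nutlin-3, for a log2 ratio of -0.33 (-0.46 to -0.20). Its counts varied more between large columns than Poisson counts do, so this interval and those of differences from MYCN are too narrow. ODC1 exceeded MYCN by 0.17 (-0.13 to 0.47) and SRM exceeded it by 0.28 (-0.018 to 0.58), both with intervals that took in 0. In large columns alone SRM exceeded MYCN by 0.42 (0.075 to 0.77), an interval that left out 0, and ODC1 by 0.26 (-0.092 to 0.61). In small columns both differences had the other sign, at -0.16 (-0.77 to 0.44) for SRM and -0.12 (-0.74 to 0.48) for ODC1. In large columns 113 of the 170 SRM counts in each pool were first counts, present in all columns, so the large-column difference is not read as one between the genes. CDKN1A had 70 and 188 counts, for a log2 ratio of 1.46 (1.07 to 1.89). SAT1 lay 1.09 below CDKN1A (difference -1.09, interval -1.79 to -0.38), which does leave out 0. MDM2, another p53 target, had 315 and 504 counts, for a log2 ratio of 0.72 (0.52 to 0.93). Of a list of 12 genes made of MYCN, MAX and targets of MYC proteins, 3 were called lower and 0 higher, with MYCN, LDHA (-0.57, -0.82 to -0.33) and ENO1 (-0.27, -0.46 to -0.07) being those 3. Of the 8 p53 targets listed, all 8 were called higher. Earlier results of these data were known when both lists were chosen, so they serve as reference points only. In all genes past the filter, 4.55% were called higher and 3.59% lower.

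**Figure D3:**
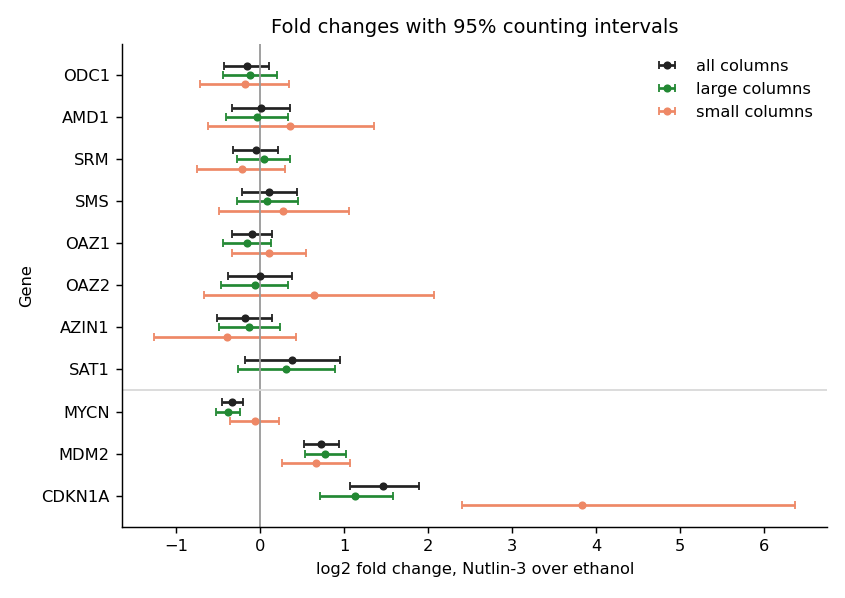
Points are log2 ratios between Nutlin-3 and ethanol with 95% counting intervals, in all columns (black), large columns (green) and small columns (orange), drawn where the gene passed the filter in those columns. The intervals of the 8 polyamine genes cross 0 in each set drawn, while those of MDM2 and CDKN1A lie above 0, and that of MYCN lies below 0 except in small columns.

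Counts per column show how the members' sums arose. In the large columns ODC1, SRM, SMS and OAZ1 had at least 1 count in all 113 columns of both treatments, and AMD1 was missing from 1 column of each. AZIN1 was in all 113 ethanol and 112 Nutlin-3 columns, and OAZ2 in 106 and 100. For several members nearly every count was a 1: AMD1 had exactly 1 count in 97 ethanol and 104 Nutlin-3 columns, and OAZ2 in 101 and 97. The ratio of variance to mean over large columns, which is 1 for Poisson counts, was 0.113 and 0.0720 for AMD1, 0.375 and 0.301 for ODC1, and 0.663 and 0.525 for OAZ1. For MYCN it was 3.26 and 3.39, with up to 53 and 47 counts in a column. The counting intervals therefore do not measure the spread of these genes between large columns. For genes present in each large column of both treatments, any difference there can lie only in counts beyond the first.

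SAT1 behaved otherwise, being far from filling the columns. A count was present in 48 of 113 large ethanol columns, 42.5% of them (33.2 to 52.1, exact binomial), and in 58 of 113 large Nutlin-3 columns, 51.3% (41.7 to 60.8). In small columns it was seen in 1 of 137 and 4 of 137. CDKN1A, near SAT1 in ethanol, was in 66 of 113 large ethanol columns and in all 113 with Nutlin-3, and in small columns in 3 of 137 and 44 of 137. The SAT1 intervals overlapped between treatments, whereas those of CDKN1A did not, at 58.4% (48.8 to 67.6) and 100% (96.8 to 100). PAOX was in 2 of 113 large Nutlin-3 columns and in none of the other columns.

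**Figure D4:**
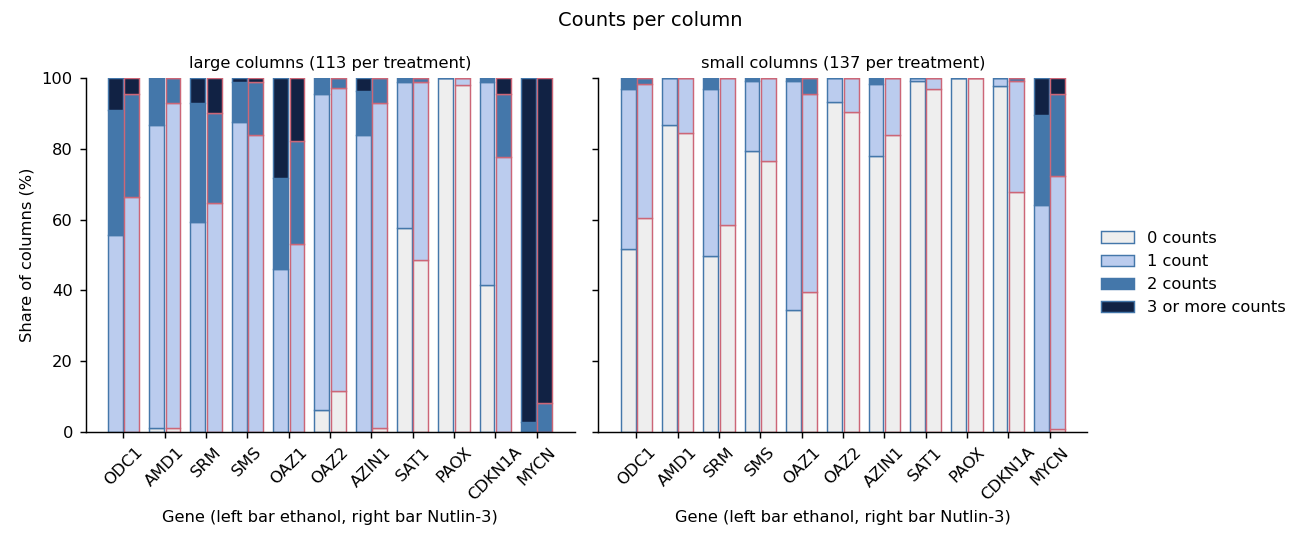
Share of columns with 0, 1, 2, or 3 or more counts of each gene in large columns (left panel) and small columns (right panel), with the ethanol bar left and the Nutlin-3 bar right in each pair. In large columns most polyamine genes had exactly 1 count in most columns, SAT1 was missing from 65 of 113 ethanol and 55 of 113 Nutlin-3 columns, and MYCN had at least 2 counts in every one.

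Counts beyond the first were compared in the large columns because those columns hold a first count of most members in any case, a measure chosen after the data were seen. ODC1 had 2 or more counts in 50 ethanol and 38 Nutlin-3 columns, SRM in 46 and 40, and OAZ1 in 61 and 53. Summed over columns, ODC1 had 64 counts beyond the first in ethanol and 45 in Nutlin-3, a log2 ratio of -0.28 (-0.87 to 0.29) relative to all such counts. SRM had 57 in both, at 0.22 (-0.33 to 0.78). OAZ1 had 109 against 81, at -0.20 (-0.64 to 0.22), and SMS 15 against 19, at 0.55 (-0.49 to 1.64). AMD1 had 15 against 8, at -0.64 (-2.13 to 0.65), and passed the filter only through the ethanol pool. AZIN1 had 22 against 8, for a log2 ratio of -1.18 (-2.61 to -0.014). It passed the filter only through the ethanol pool, where it was higher, so this call is not read as a change. No other member was called by this measure. Of 2817 genes with enough such counts in at least 1 pool, 5.22% were called lower and 7.60% higher, so 1 of the 6 members that passed is near the background. In the small columns the sums were 70 and 56 for ODC1, 73 and 57 for SRM, 91 and 89 for OAZ1, and 32 and 22 for AZIN1. Their log2 fold changes there were -0.19 (-0.72 to 0.34), -0.22 (-0.75 to 0.30), 0.10 (-0.34 to 0.54) and -0.40 (-1.26 to 0.42), all with intervals across 0.

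At a common depth the share of columns with each gene also gave no separation. Columns were thinned to 700 counts, which left 194 ethanol and 187 Nutlin-3 columns, 56 and 63 being shallower. ODC1 was then seen in 19.1% of ethanol (13.8 to 25.3) and 18.2% of Nutlin-3 columns (12.9 to 24.5), against 71.6% and 66.8% of 250 columns without thinning, whose median depths were 2287 and 2010.5 human counts. SRM was in 21.1% and 19.3% (72.8% and 68.0% without thinning), and OAZ1 in 26.8% and 21.4% (81.2% and 78.4%). SAT1 was in 2.06% (0.565 to 5.19) and 1.60% (0.332 to 4.62), from 4 and 3 columns, and in 19.6% and 24.8% without thinning. The order of the treatments for SAT1 thus turned with the thinning, on 7 columns in all. Intervals of the 2 treatments overlapped for all 9 genes. They also overlapped for MYCN, at 49.0% and 41.2%, which was called lower in sums, but not for CDKN1A, at 3.61% and 16.0%. A common depth did not make large and small columns alike. In large columns alone, thinned to 700, ODC1 was in 11.5% and 8.85%, and SRM in 8.85% of each treatment. PAOX was in 0 of 194 and 0 of 187, which allows shares up to 1.55% and 1.60%. The line holds no cell type that lacks these genes, so the share free RNA would give is unknown.

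Genes that feed, move or use polyamines were read from a list of 36. The table held 30 of them, and 24 had enough counts for the filter. None (0) of the 24 was called, near the 8.14% of all genes past the filter and the 4.32% of those with at least 50 CPM, and their median log2 fold change was -0.061. As for the members, a sum with no call does not show that a gene stayed the same. In counts beyond the first in large columns 11 genes of the list passed the filter, of which 2 were called higher and 0 lower, against 7.60% and 5.22% of all 2817 genes. In each branch the gene with the most counts is given. ASS1, of arginine synthesis, had 148 and 144 counts in ethanol and Nutlin-3, for a log2 ratio of 0.0061 (-0.34 to 0.35). SAT2, a relative of SAT1, had 130 and 146, at 0.21 (-0.14 to 0.57). It was one of those 2, with 4 counts beyond the first against 19, at 2.34 (0.88 to 4.49). The other was the transporter subunit gene SLC3A2, with 4 against 12, at 1.70 (0.086 to 3.90). Both passed the filter only through the Nutlin-3 pool, where they were higher, so neither call is read as a change. SMOX, the oxidase that acts on spermine directly, had 20 and 27, at 0.47 (-0.41 to 1.39).

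ATP13A3, a polyamine transporter, had 138 counts in both pools, at 0.045 (-0.31 to 0.40). In large columns it had 121 and 118 counts, of which 14 and 7 were beyond the first of a column. ASS1 had 127 and 127 there, of which 15 and 15 were. Such sums have little room to differ, so near-equal counts of these genes do not show that they stayed the same. EIF5A, the translation factor that carries the spermidine-derived amino acid hypusine, had 185 and 172 counts, at -0.060 (-0.37 to 0.25). MAT2A, which makes S-adenosylmethionine, had 225 and 203, at -0.10 (-0.38 to 0.18). In the salvage of methionine from the by-product of spermidine and spermine synthesis, MRI1 had 126 and 148 counts, at 0.28 (-0.07 to 0.63), and ENOPH1 145 and 129, at -0.12 (-0.48 to 0.23). MTAP, the first enzyme of that salvage and a gene that some tumours lose, had 128 and 116 counts. OAZ3, an antizyme gene best known from testis, had 4 and 10 counts and did not pass the filter.

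Some counts could be shared with near copies or overlapping genes, and no source used here states the counting rules. The processed pseudogene OAZ1P1 had 19 counts with ethanol and 21 with Nutlin-3, beside 313 and 283 for OAZ1. The AMD1 pseudogenes AMD1P2, AMD1P3 and AMD1P4 had at most 1 count in each pool. On the strand opposite AZIN1 the antisense gene AZIN1-AS1 had 31 and 27 counts, and JSRP1, which overlaps OAZ1 on the other strand, had 32 and 32. Opposite OAZ2, the antisense genes AC100830.3, AC100830.2 and AC100830.1 had 19 and 37, 3 and 0, and 7 and 1 counts. ODC1-DT, a noncoding gene named after ODC1, had 9 and 6, and the small nucleolar RNA gene SNORA80B inside ODC1 had 2 and 1.

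Likeness between genes over the large columns was weak. The measure was the mean of Pearson's r in ethanol and in Nutlin-3, on the log of counts scaled to a common column total, over 113 columns each, and it describes sparse counts that share their column's depth. The genes most like ODC1 were RPL14P1 and VDAC3, at mean r of 0.388 and 0.369 among 8843 genes. Those most like SRM were RPL38, ATP5F1E and MDM2, at 0.378, 0.362 and 0.338, and those most like SAT1 were SPDL1, CCDC43 and ZNF652, at 0.264, 0.248 and 0.226. Between ODC1 and SRM r was 0.249 in ethanol and 0.232 in Nutlin-3, while between SAT1 and ODC1 it was -0.040 and -0.0038. Values of this size in counts that are mostly 0, 1 or 2 are no finding.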

How the data were processed

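RNA was counted in NGP cells treated with Nutlin-3 or ethanol. The authors deposited 1 table of whole-number counts per gene and column. In large columns 1469 genes with ethanol and 1043 with Nutlin-3 had a count in every column. Whether the counts were processed before deposit can therefore not be told from the values. Per the labels' protocols, libraries came from the ddSeq device and a 3' kit. Neither the aligner and build nor the gene models, the handling of molecular tags or the cell filter is stated in those protocols.

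Columns ending in treated were taken as Nutlin-3 and those ending in untreated as ethanol. The design foresaw a test on 4 libraries if columns named them. They do not, so 1 pool per treatment was described with no test and no p-value. Pool sums left out 62 ERCC species and were scaled with TMM factors (edgeR 4.0.16 in R 4.3.3), 1.0003 for ethanol and 0.9997 for Nutlin-3. The edgeR filter with a minimum of 10 counts kept 14830 genes. With 1 pool per treatment, enough counts in either pool let a gene pass. The log2 fold change used 0.5 added counts, with a 95% interval from exact binomial bounds on the part of a gene's counts found in Nutlin-3. All intervals cover counting error only, take counts as independent molecules and hold no variation between cultures or libraries. Gene positions are from GENCODE release 29 on GRCh38, which need not be the authors' build. Calculations were checked on simulated Poisson counts, whose spread differs from that of these columns. The check therefore does not show how well the intervals hold here. Python 3.11.15 and scipy 1.17.1 were used. No doublet caller was run, all cells being of 1 line.

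The members and lists were chosen with earlier results of these data known. All 9 members were named whatever their values, with MYCN, CDKN1A and MDM2. Of the pathway list, called genes and the gene with the most counts per branch were named, and SMOX, MTAP and SLC3A2 were added after their values were seen. LDHA, ENO1 and markers were named the same way. For likeness to ODC1, SRM and SAT1, the 3 genes with the highest mean r were named, except 1 that is not reported here.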

Additional observations from a re-analysis of the deposited data

How the results depend on the processing

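No paired analysis was possible because no column name tells the libraries apart. The planned DESeq2 test, replicate block and fits without a library could likewise not be run. Of 79 values of single members under the alternatives, 65 stayed within the first counting interval and 14 did not. Scaling to ERCC counts lowered each gene by a like amount: the members' median was -0.50 and 7 of 8 were called lower (all but SAT1), beside a median of -0.47 over all genes, 53.8% of them called lower. Each pool mixes 2 ERCC dilutions in unknown parts, so that scaling is not read as a change in RNA. Size factors of DESeq2 1.42.0, thinning to the smaller total and large columns alone left 0 members called. The same held without columns under the median total divided by 3, and in columns with names in both treatments. No filter and an added count of 2 also left 0 called, but they keep each counting interval as it was. Those 2 settings could not change the call of the 8, and their values are among the 65. Columns with names in 1 treatment alone gave a median of -0.38 over 2 members and a difference of SRM and ODC1 of -0.77. Counts beyond the first, an alternative chosen after seeing the data, gave a median of -0.24 over 6 members, with 1 called lower. That member, AZIN1, passed the filter only through the ethanol pool, where it was higher. Small columns alone, with 1 and 4 counts of SAT1, put SAT1 above ODC1 by 1.90 and above SRM by 1.94, and gave a log2 difference of 1.78 for the ratio of breakdown to synthesis. With at least 2 counts asked for and no thinning, also chosen after seeing the data, 1 member had a higher share of columns in Nutlin-3, against 3 at 700 counts and 1 count. The cause was not tested.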
